A study of Homo sapiens with 7 samples.

Results

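The genes described here are 10 markers of pancreatic duct and simple epithelium, namely SOX9, HES1, KRT8, KRT18, KRT19, KRT7, EPCAM, CDH1, SPP1 and CFTR. They were taken from a fixed list by gene symbol, and all 10 were found among the 66025 Ensembl gene IDs of the count table. RNA-seq had been done on insulin-expressing β-like cells that were labelled with the dye DA-ZP1 and sorted by flow cytometry at stage 6 as H1 cells were differentiated in vitro, H1 being an established human embryonic stem cell line. All cells carried an integrated, puromycin-selected lentiviral vector whose short hairpin RNA is switched on by doxycycline (Dox). In the group iKD2 Dox+ (n = 3 libraries, a, b and c) the hairpin against METTL14, a subunit of the enzyme that writes N6-methyladenosine (m6A) on mRNA, was induced during differentiation. The group iKD2 Dox- (n = 2, b and c) was the same line without Dox, and iSCR Dox+ (n = 2, a and b) was a line with a non-targeting hairpin and Dox. These RNA-seq groups therefore rest on 1 parental line and 1 of the hairpins against METTL14.

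The exocrine ducts of the pancreas are lined by a simple epithelium that arises from the same progenitors as the islets. SOX9 marks those progenitors and later stays on in duct cells, while it is switched off as cells commit to the endocrine fate. Notch signalling keeps progenitors from that commitment, in part through HES1, which represses the endocrine regulator NEUROG3. Simple keratins form the intermediate filaments of such epithelia, as obligate pairs of 1 type I chain (KRT18, KRT19) with 1 type II chain (KRT8, KRT7). EPCAM and CDH1 (E-cadherin) hold neighbouring epithelial cells together, CFTR is the chloride channel of the duct surface, and SPP1 (osteopontin) is a secreted glycoprotein of duct epithelium.

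HES1 is a direct target of the Notch effector RBPJ, and its promoter is shown because the letters that RBPJ reads can be seen in it. The 250 bases before its start in RefSeq are at chr3:194135898-194136147 on the plus strand (GRCh38.p14). Capitals mark GTGGGAA, the core that RBPJ binds, and CCAAT, both searched on either strand, so that ATTGG is CCAAT read on the other strand.
HES1: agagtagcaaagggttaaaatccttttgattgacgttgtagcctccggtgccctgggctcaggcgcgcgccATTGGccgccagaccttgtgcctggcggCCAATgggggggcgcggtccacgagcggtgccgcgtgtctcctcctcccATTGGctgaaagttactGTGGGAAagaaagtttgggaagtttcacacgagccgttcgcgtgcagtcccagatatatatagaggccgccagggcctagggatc
The window held the RBPJ core, searched only as GTGGGAA, once and CCAAT at 3 places. Other forms of the RBPJ site were not searched. Of the 35116 promoter windows of the same length, 5.43% held GTGGGAA. The share with CCAAT was 32.0%. RefSeq promoters of SPP1, CFTR and KRT8 were also searched and did not hold the RBPJ core, whereas those of SOX9, KRT19, KRT18, KRT7, EPCAM and CDH1 were not searched here.

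Levels are given as CPM, the count of a gene relative to the size of its library, scaled by the trimmed mean of M-values (TMM), which corrects for composition. Total estimated counts ranged from 14875429 to 20639156 per library, mitochondrial genes took 3.12% to 3.55% of counts, and 19570 to 23676 genes had at least 1 count. Values of the libraries of a group follow in the order of their letters. METTL14 itself was at 18.7, 16.3 and 49.1 CPM in iKD2 Dox+, at 39.4 and 22.6 CPM in iKD2 Dox-, and at 36.1 and 32.2 CPM in iSCR Dox+. The third induced library, labelled iKD2 Dox+ c, held more METTL14 RNA than any control. INS, the hormone that defines these cells, was at 11365 to 13581 CPM with the induced hairpin and at 14630 to 22298 CPM in the controls. In bulk samples such as these, fewer cells of a type and less RNA per cell cannot be told apart.

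**Figure D1:**
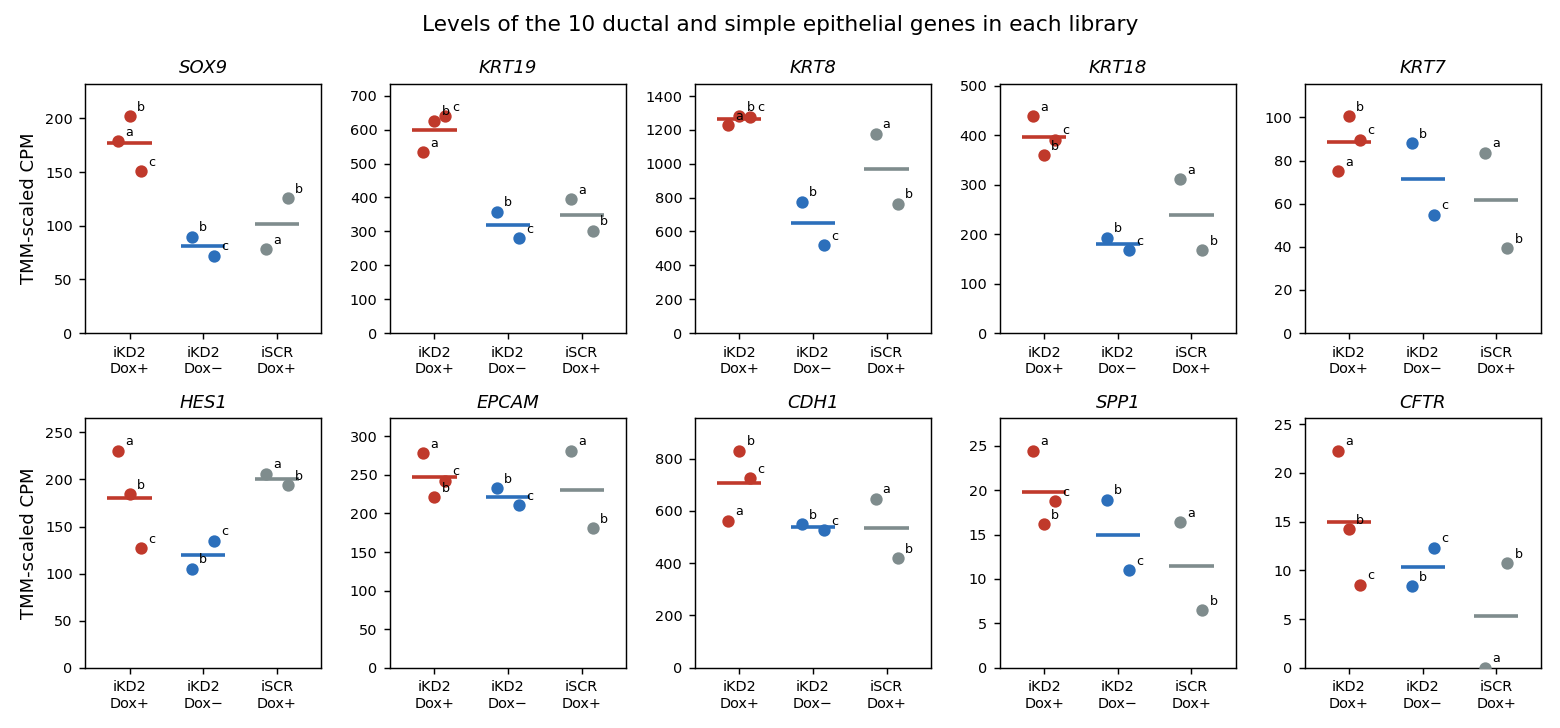
TMM-scaled CPM (y axes, each from 0) of the 10 genes in every library of the 3 groups (x axes); points are libraries with their letter and bars are group means. For SOX9, KRT19, KRT8 and KRT18 the 3 iKD2 Dox+ libraries lie above all 4 control libraries, and for the other 6 genes the groups overlap.

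With the induced hairpin, the mean of all 10 genes was above that of iKD2 Dox-, and 9 of 10, HES1 being the exception, were above iSCR Dox+. SOX9 and the keratins KRT19, KRT8 and KRT18 stood apart from the other members, because every iKD2 Dox+ library lay above every control library. That holds for 4 of the 10 members, against 3.47% of the 22926 genes tested. The list was chosen with earlier results of these data known, and the study had reported SOX9 and KRT19 as raised by the knockdown. Shares of members beside shares of all genes, here and below, are therefore a description only. All 10 members passed the filter on low counts. The genes were tested with edgeR (quasi-likelihood test, Benjamini-Hochberg adjustment over all genes tested), and none of the 10 passed an adjusted p of 0.05 in any comparison. Both comparisons of iKD2 Dox+ use the same 3 libraries, so their values are given side by side and are not independent.

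SOX9 (ENSG00000125398, chr17:72121020-72126420, plus strand; coordinates throughout are those of GENCODE 29 on GRCh38, found by gene ID) encodes the transcription factor of duct and progenitor cells. SOX9 stood at 179, 202 and 151 CPM in iKD2 Dox+, at 89.8 and 72.1 CPM in iKD2 Dox-, and at 78.3 and 125 CPM in iSCR Dox+. The lowest induced library was 1.20 times the highest control, iSCR Dox+ b. Group means were 177 ± 25.6 (SD, n = 3), 80.9 ± 12.5 (SD, n = 2) and 102 ± 33.4 CPM (SD, n = 2). SOX9 was 2.19-fold higher than in iKD2 Dox- (log2 fold change 1.13, SE 0.31, unadjusted p = 0.00156, adjusted p = 0.550). Against iSCR Dox+ it was 1.74-fold higher (log2 fold change 0.80, SE 0.31, adjusted p = 0.679). The controls themselves differed by -0.33 on the log2 scale (SE 0.33), a difference about as large as its error. SOX9-AS1, a transcript that GENCODE places opposite SOX9, was at 30.6, 4.18 and 5.32 CPM in iKD2 Dox+, at 0.487 and 4.96 CPM in iKD2 Dox-, and at 20.0 and 19.0 CPM in iSCR Dox+. It equalled at most 25.6% of the SOX9 count in a library, and did not follow SOX9 across the groups.

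HES1 (ENSG00000114315, chr3:194136145-194138732, plus strand), the Notch target whose promoter is printed above, did not separate the groups. Its levels were 230.3, 184 and 127 CPM in iKD2 Dox+, 105 and 135 CPM in iKD2 Dox-, and 206 and 194 CPM in iSCR Dox+. The induced libraries spanned nearly the whole range, and the lowest of them was below iKD2 Dox- c. HES1 differed by 0.59 on the log2 scale from iKD2 Dox- (95% CI -0.00 to 1.18, unadjusted p = 0.0512, adjusted p = 1) and by -0.15 from iSCR Dox+ (95% CI -0.73 to 0.43). The wider gap was between the controls, where iKD2 Dox- differed from iSCR Dox+ by -0.73 on the log2 scale (SE 0.31, unadjusted p = 0.0264, adjusted p = 0.826).

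Keratins carried most of the RNA of the set. KRT19 (ENSG00000171345, chr17:41523617-41528308, minus strand), the type I keratin most used to mark ducts, was at 533, 626 and 639.9 CPM in iKD2 Dox+. The controls held less, with 358 and 279.6 CPM in iKD2 Dox- and 395 and 302 CPM in iSCR Dox+. The 4 controls lay close together, and the lowest induced library was 1.35 times the highest of them, the widest gap of the 10 genes. KRT19 was 1.88-fold higher than in iKD2 Dox- (log2 fold change 0.91, SE 0.21, unadjusted p = 2.99e-04, adjusted p = 0.196) and 1.72-fold higher than in iSCR Dox+ (0.78, SE 0.21, unadjusted p = 0.00123, adjusted p = 0.371). Between the controls the log2 difference was -0.13 (SE 0.22).

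KRT8 (ENSG00000170421, chr12:52897187-52949954, minus strand), the type II partner of KRT18, was nearly the same in the 3 induced libraries, at 1228, 1281 and 1279 CPM. The controls were spread more widely, at 776 and 519 CPM in iKD2 Dox- and at 1178 and 764 CPM in iSCR Dox+. The level of iSCR Dox+ a therefore came close to the induced libraries, whose lowest was 1.04 times as high. KRT8 was 1.95-fold higher than in iKD2 Dox- (log2 fold change 0.96, SE 0.20, unadjusted p = 1.03e-04, adjusted p = 0.135). Against iSCR Dox+ the log2 fold change was 0.38 (95% CI -0.03 to 0.79, unadjusted p = 0.0695). As with HES1, iKD2 Dox- lay below iSCR Dox+, by -0.58 on the log2 scale (SE 0.22, unadjusted p = 0.0130, adjusted p = 0.826).

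KRT18 (ENSG00000111057, chr12:52948871-52952901, plus strand) was at 438, 359 and 391 CPM in iKD2 Dox+, at 192 and 168 CPM in iKD2 Dox-, and at 310.4 and 167 CPM in iSCR Dox+. Here too iSCR Dox+ a was the highest control, and the lowest induced library was 1.16 times as high. The log2 fold change was 1.14 against iKD2 Dox- (SE 0.26, unadjusted p = 2.45e-04, adjusted p = 0.181) and 0.73 against iSCR Dox+ (SE 0.25, unadjusted p = 0.00923, adjusted p = 0.632). KRT8 and KRT18 overlap on opposite strands in GENCODE and both have many processed pseudogenes, 51 for KRT8 and 67 for KRT18. Counts of the KRT8 pseudogenes equalled 0.470% to 4.31% of the KRT8 count in a library, and those of KRT18 1.70% to 14.9%. The estimated count was not whole for KRT8 in 7 libraries and for KRT18 in 6, so some of their reads had been shared out with other transcripts. Which transcripts these were was not tested.

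KRT7 (ENSG00000135480, chr12:52232520-52252186, plus strand), a second type II keratin of ducts, overlapped between groups. KRT7 stood at 75.1, 101 and 89.6 CPM in iKD2 Dox+, at 88.0 and 54.9 CPM in iKD2 Dox-, and at 83.6 and 39.5 CPM in iSCR Dox+. The log2 fold change was 0.31 against iKD2 Dox- (95% CI -0.51 to 1.13) and 0.52 against iSCR Dox+ (95% CI -0.30 to 1.35), which leaves room for a change as large as that of KRT19.

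Levels of different genes were compared per kilobase of the main coding transcript of GENCODE (the APPRIS principal one, or the longest of these). The 4 keratins together came to 1285, 1340 and 1363 CPM per kb in iKD2 Dox+, to 796 and 584 in iKD2 Dox- and to 1085 and 706 in iSCR Dox+. All 3 induced libraries were above all 4 controls. KRT8 made up 41.8% to 51.1% of the keratin RNA in a library, KRT19 26.2% to 34.4%, KRT18 15.2% to 21.8% and KRT7 3.19% to 6.31%. Over the 7 libraries, the coefficient of variation was 31.8% for the sum and 25.7% for the KRT7 share. It was 7.51% to 12.6% for the shares of KRT8, KRT19 and KRT18. The KRT7 share was 3.33% to 4.28% in iKD2 Dox+, 6.31% and 5.36% in iKD2 Dox-, and 4.39% and 3.19% in iSCR Dox+. The ratio of type I to type II keratin RNA was 1.03 to 1.09 in iKD2 Dox+, 0.917 and 1.12 in iKD2 Dox-, and 0.803 and 0.849 in iSCR Dox+.

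**Figure D2:**
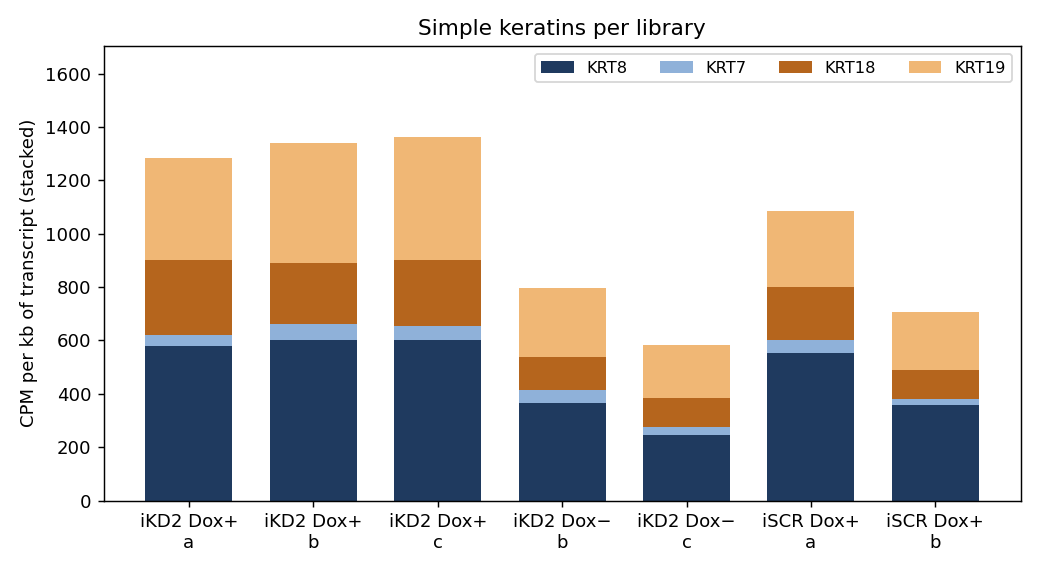
Levels of KRT8, KRT7, KRT18 and KRT19 stacked in CPM per kb of transcript (y axis, from 0) for each of the 7 libraries (x axis). The stacks of the 3 iKD2 Dox+ libraries reach 1285 to 1363, the highest control, iSCR Dox+ a, reaches 1085, and the 3 other controls 584 to 796.

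For both adhesion genes, iKD2 Dox+ overlapped with the controls. EPCAM (ENSG00000119888, chr2:47345158-47387601, plus strand) was the least variable member, with a coefficient of variation of 15.2% over the 7 libraries. Its levels were 278, 221 and 243 CPM in iKD2 Dox+, 233 and 211 CPM in iKD2 Dox-, and 281 and 181 CPM in iSCR Dox+. The groups overlapped fully, and the log2 difference was 0.16 from iKD2 Dox- (95% CI -0.36 to 0.67) and 0.10 from iSCR Dox+ (95% CI -0.41 to 0.61). CDH1 (ENSG00000039068, chr16:68737225-68835548, plus strand) was at 562, 829.6 and 725 CPM in iKD2 Dox+, at 549.7 and 526 CPM in iKD2 Dox-, and at 647 and 419.6 CPM in iSCR Dox+. Its 3 induced libraries were above both iKD2 Dox- libraries, but iKD2 Dox+ a was below iSCR Dox+ a. The log2 fold change of CDH1 was 0.39 against iKD2 Dox- (SE 0.21, unadjusted p = 0.0800) and 0.40 against iSCR Dox+ (SE 0.21, unadjusted p = 0.0713).

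Both genes of differentiated duct function were low. SPP1 (ENSG00000118785, chr4:87975650-87983426, plus strand) was at 24.4, 16.2 and 18.8 CPM in iKD2 Dox+, at 18.9 and 11.002 CPM in iKD2 Dox-, and at 16.4 and 6.49 CPM in iSCR Dox+. The groups overlapped, and the log2 fold change of 0.40 against iKD2 Dox- had a 95% CI of -1.45 to 2.25. CFTR (ENSG00000001626, chr7:117465784-117715971, plus strand) was at 22.3, 14.2 and 8.52 CPM in iKD2 Dox+, at 8.38 and 12.3 CPM in iKD2 Dox-, and at 10.7 CPM in iSCR Dox+ b. iSCR Dox+ a had a CFTR count of 0, which allows up to 3 counts or 0.203 CPM, whereas the other 6 libraries had 149 to 372 counts. The log2 fold change of CFTR was 0.54 against iKD2 Dox- (95% CI -2.49 to 3.57), so changes of many-fold in either direction were not detectable. GENCODE places CTTNBP2 opposite CFTR, with 327% of its counts over all libraries.

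Per kilobase, mean levels over the 7 libraries fell from KRT8 (472 CPM per kb) through KRT19 (322), KRT18 (185), EPCAM (136), CDH1 (124), HES1 (107), KRT7 (43.3), SOX9 (32.6) and SPP1 (10.1) to CFTR (1.78). KRT8 was above KRT19, KRT19 above KRT18, HES1 above KRT7, SOX9 above SPP1 and SPP1 above CFTR in all 7 libraries. The neighbours KRT18 and EPCAM, EPCAM and CDH1, CDH1 and HES1, and KRT7 and SOX9 kept their order in 5 of 7 libraries, so these levels were not apart beyond their spread.

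**Figure D3:**
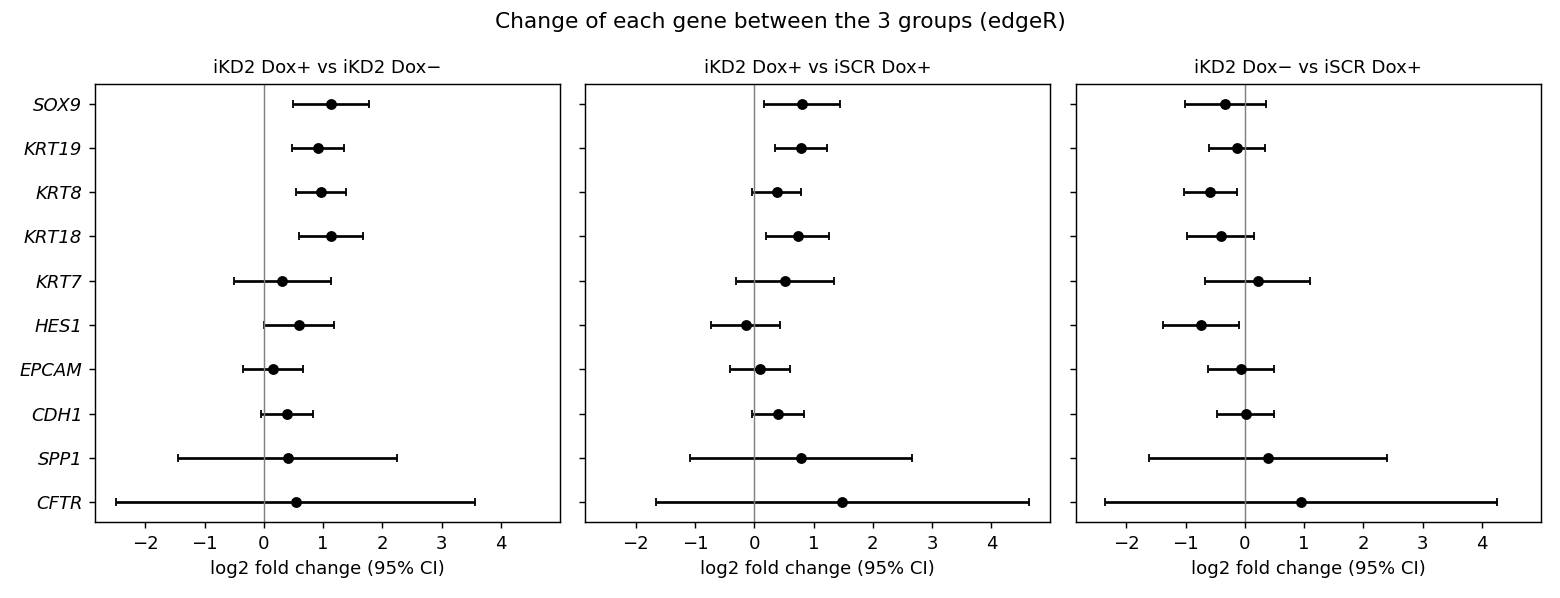
Log2 fold change (x axes, points) with 95% confidence interval (lines) of each gene in the 3 comparisons between groups, from the edgeR fit. The intervals of SOX9, KRT19 and KRT18 lie above 0 against both iKD2 Dox- and iSCR Dox+, that of KRT8 only against iKD2 Dox-, and those of SPP1 and CFTR are the widest.

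Against iKD2 Dox-, 0 of 10 members passed an adjusted p of 0.05, where 0.0393% of all genes tested did. Before adjustment, SOX9, KRT19, KRT8 and KRT18 were higher at p under 0.05, or 4 of 10 members against 2.04% of all genes. Against iSCR Dox+, 0 of 10 passed (background 0.0262%), and SOX9, KRT19 and KRT18 were higher before adjustment (3.94% of all genes). Between iKD2 Dox- and iSCR Dox+, 0 of 10 passed (background 0.0131%), and KRT8 and HES1 were lower in iKD2 Dox- before adjustment (1.79% of all genes). When iKD2 Dox+ was set against the mean of both control groups, 0 of 10 passed (background 0.048%), and SOX9, KRT19, KRT8, KRT18 and CDH1 were higher before adjustment (4.51% of all genes). The lowest adjusted p in that comparison was 0.0690, for KRT19 (log2 fold change 0.85, SE 0.17). There the median of all genes was itself at 0.14 and 56.8% of genes were above 0, whereas the median of the 10 members was 0.63.

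More members were called with other tools, and when a control library other than iKD2 Dox- c was left out. Leaving out an iKD2 Dox+ library added no call. DESeq2 called SOX9, KRT19, KRT8 and KRT18 against iKD2 Dox- (0.925% of all genes called) and against both control groups (2.56%), and KRT19 against iSCR Dox+ (3.45%). limma voom, the transformation named in the methods of the study, called KRT19, KRT8 and KRT18 against iKD2 Dox- (0.157%), KRT19 against iSCR Dox+ (0.0654%), and KRT19 and KRT18 against both control groups (0.214%). With iSCR Dox+ a left out of the edgeR fit, SOX9, KRT19, KRT8 and KRT18 were called against iKD2 Dox- (0.361%), KRT19 and KRT18 against iSCR Dox+ (0.664%), and KRT19, KRT8 and KRT18 against both control groups (0.836%). With iSCR Dox+ b left out, the same 4 genes were called against iKD2 Dox- (0.416%), CFTR, whose remaining iSCR library was at 0, against iSCR Dox+ (1.97%), and these 5 genes against both control groups (1.5%). With iKD2 Dox- b left out, KRT8 was called against iKD2 Dox- (0.105%), and KRT19, KRT8 and KRT18 against both control groups (0.207%). In these settings 1 control group had a single library, which is assumed to vary like the others, and the filter then let 27528 to 27992 genes through in place of 22926. KRT8 also differed between the controls. With iSCR Dox+ b left out, KRT8 and CFTR were also called between iKD2 Dox- and iSCR Dox+. Over all alternatives, the log2 difference of KRT8 in iKD2 Dox- from iSCR Dox+ was -0.90 to -0.24. The comparison of KRT8 with iKD2 Dox- is therefore one with the lower control group. With the 22926 genes kept, an alternative chosen after seeing the data, fewer calls were gained. Without iSCR Dox+ a, KRT8 and KRT18 were then called against iKD2 Dox- (0.0829% of all genes), and KRT19, KRT8 and KRT18 against both control groups (0.196%). Without iSCR Dox+ b, KRT8 and KRT18 were called against iKD2 Dox- (0.105%) and SOX9 against both control groups (0.545%). CFTR was then not called, and no member was called when an iKD2 Dox- library was left out.

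Across the 7 libraries, 36 of the 45 pairs of members had a positive Pearson correlation of log2(CPM + 1), with a median of 0.56. The closest pairs were KRT8 with KRT18 and KRT19 with KRT18, at 0.92 each, followed by KRT19 with KRT8 at 0.89 and KRT7 with CDH1 at 0.88. SOX9 was closest to KRT19 (0.79). HES1 and CFTR followed the others least, with no value above 0.56, that of CFTR with SOX9. The libraries share depth and group, and these values over 7 points are a description only.

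Among 4275 other genes of at least 50 CPM, the gene most like SOX9 across the 7 libraries was TPM1 (r = 0.97), most like KRT19 was VCL (0.97), most like KRT8 was TMBIM1 (0.97) and most like KRT18 was HSPG2 (0.99). For KRT7 it was NCKAP5L (0.96), for HES1 CORO1C (0.98), for EPCAM MMP14 (0.98) and for CDH1 IVNS1ABP (0.94). For SPP1 it was RRP1B and for CFTR ZSCAN18 (0.98 each). For SPP1 and CFTR, themselves below 50 CPM, 4276 genes were searched. These are the highest of all values searched, over 7 libraries each, and are given as a description.

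Because METTL14 belongs to the m6A writer, GGACT, the most usual form of the m6A motif, was counted in the main coding transcript of each gene. The members held 0.470 (KRT8) to 1.90 (HES1) GGACT per kb with a median of 0.961, and the median of 19388 coding genes was 0.937. SOX9 held 3 copies, KRT19 1, KRT8 1 and KRT18 2.

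The other genes of duct and duct progenitors, a list of 18 of which 17 were tested, moved with less order. None passed an adjusted p of 0.05 in any comparison, 10 of 17 were above 0 against both control groups, and their median of 0.31 compares with 0.14 for all genes. Their summed level was 1094 to 1437 CPM in iKD2 Dox+ and 861 to 946 CPM in the controls, with no overlap. Most of that sum was CD24 and CLDN4, the most abundant genes of the list. CD24, picked after its values were seen, was at 513 to 647 CPM in iKD2 Dox+ and 406 to 499 CPM in the controls. AQP1, a water channel of ducts, was at 18.4, 6.74 and 2.40 CPM in iKD2 Dox+, at 3.75 and 3.98 CPM in iKD2 Dox-, and at 0 in both iSCR libraries. CLDN4, a tight junction claudin of ducts that was picked after its values were seen, was at 211 to 338 CPM in iKD2 Dox+ and at 77.9 to 145 CPM in the controls (log2 fold change 1.17 against both control groups, SE 0.23, adjusted p = 0.0690).

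Of 12 genes for duct ion and fluid transport, the functional partners of CFTR, 9 were above 0 against both control groups and none passed. Their sum was 462 to 563 CPM in iKD2 Dox+ and 345 to 395 CPM in the controls. KCNN4, a calcium-activated potassium channel, was at 28.7, 9.55 and 11.9 CPM in iKD2 Dox+, at 2.09 and 0.436 CPM in iKD2 Dox-, and at 8.80 and 5.75 CPM in iSCR Dox+. CA2, the carbonic anhydrase that supplies bicarbonate, was at 0.0598, 6.80 and 0 CPM in iKD2 Dox+ and ranged from 0.602 to 21.8 CPM in the controls.

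Among the remaining keratins, 11 of 16 were tested, 10 were above 0 against both control groups and none passed. KRT5, a basal keratin, was at 43.6, 45.1 and 93.2 CPM in iKD2 Dox+, at 12.8 and 10.2 CPM in iKD2 Dox-, and at 29.5 and 45.9 CPM in iSCR Dox+. It was 2.40 log2 units higher than in iKD2 Dox- (SE 0.58, adjusted p = 0.264) but overlapped with iSCR Dox+. KRT17 was at 63.8, 138 and 144 CPM in iKD2 Dox+ and at 7.84 to 83.7 CPM in the controls. KRT20, a keratin of ducts and gut, was at 0 in all 7 libraries.

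Junction genes gave the only call on the epithelial side. DSC3, a desmosomal cadherin, was at 199, 120 and 228 CPM in iKD2 Dox+, at 54.1 and 33.8 CPM in iKD2 Dox-, and at 70.7 and 118 CPM in iSCR Dox+. It rose by 2.05 on the log2 scale against iKD2 Dox- (SE 0.37, adjusted p = 0.0451), and against iSCR Dox+ its log2 fold change was 0.95 (SE 0.35, adjusted p = 0.670). It was 1 of 15 adherens junction and desmosome genes, whose median against both control groups was 0.14, as for all genes. With DSC3, 4 of the 15 genes had all induced libraries above all controls, against 3.47% of all genes. The other three were picked after their values were seen. DSG2 was at 324 to 402 CPM against 168 to 232 CPM, DSC2 at 229.6 to 261 CPM against 111 to 190.5 CPM, and JUP at 300.3 to 347 CPM against 149 to 299.7 CPM. DSP (desmoplakin), the most abundant gene of the list and likewise picked after its values were seen, was at 3579 to 3963 CPM in iKD2 Dox+ and 3901 to 4369 CPM in the controls, a log2 difference of -0.11 against both control groups (SE 0.10). None of the 14 tight junction genes passed, and their median was 0.01. MARVELD2 (tricellulin) was at 10.3 to 27.5 CPM in iKD2 Dox+ and 0 to 7.70 CPM in the controls, whereas the polarity gene CRB3 was at 6.10 to 8.11 CPM and 1.29 to 27.3 CPM.

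Of 14 regulators of epithelial identity, 12 were above 0 against both control groups with a median of 0.42, and none passed. Their sum was 1476 to 1660 CPM in iKD2 Dox+ and 951 to 1268 CPM in the controls. OVOL1 and OVOL2, zinc finger repressors of mesenchymal genes, were at 19.3 to 48.4 CPM and 2.97 to 13.7 CPM in iKD2 Dox+ against 1.58 to 17.5 CPM and 0 to 14.7 CPM in the controls. ELF3, an epithelial ETS factor picked after its values were seen, was at 258, 224 and 182 CPM in iKD2 Dox+, at 98.7 and 81.1 CPM in iKD2 Dox-, and at 148 and 115 CPM in iSCR Dox+.

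The Notch pathway around HES1 was read from 10 ligands and receptors, 17 signal transducers and 8 other targets, and none of these passed in any comparison. NRARP, a feedback target of Notch, was at 84.5, 57.3 and 70.6 CPM in iKD2 Dox+, at 25.8 and 16.0 CPM in iKD2 Dox-, and at 34.5 and 23.7 CPM in iSCR Dox+. All induced libraries of NRARP were above all controls (log2 fold change 1.52 against both control groups, SE 0.40, adjusted p = 0.262), unlike those of HES1. HEYL was at 0 to 25.5 CPM in iKD2 Dox+ and 0 to 6.76 CPM in the controls. The receptor NOTCH2 was at 74.3 to 83.9 CPM in iKD2 Dox+ and 33.8 to 59.8 CPM in the controls (log2 fold change 0.88 against both control groups, SE 0.33, adjusted p = 0.714). DLL3, a ligand-like inhibitor, was at 0.686 to 6.12 CPM in iKD2 Dox+ and 8.82 to 70.3 CPM in the controls. The coactivator MAML1 was at 0 to 3.60 CPM in iKD2 Dox+, at 4.34 and 4.47 CPM in iKD2 Dox-, and at 29.7 and 29.4 CPM in iSCR Dox+, and the γ-secretase subunit PSENEN at 5.62 to 36.3 CPM and 3.93 to 13.4 CPM. The summed level of the 8 other Notch targets was 132 to 221 CPM in iKD2 Dox+ and 65.6 to 104 CPM in the controls. NRARP is part of that sum and was the most abundant of the 8 genes. No other gene of the 8 had all induced libraries above all controls.

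For SPP1, 7 of 12 receptors and relatives were tested, none passed, and their median was 0.21. The integrin chain ITGA5 was at 6.35 to 45.0 CPM in iKD2 Dox+ and 0.468 to 27.1 CPM in the controls, and CD44 at 4.06 to 23.7 CPM and 12.4 to 19.0 CPM.

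**Figure D4:**
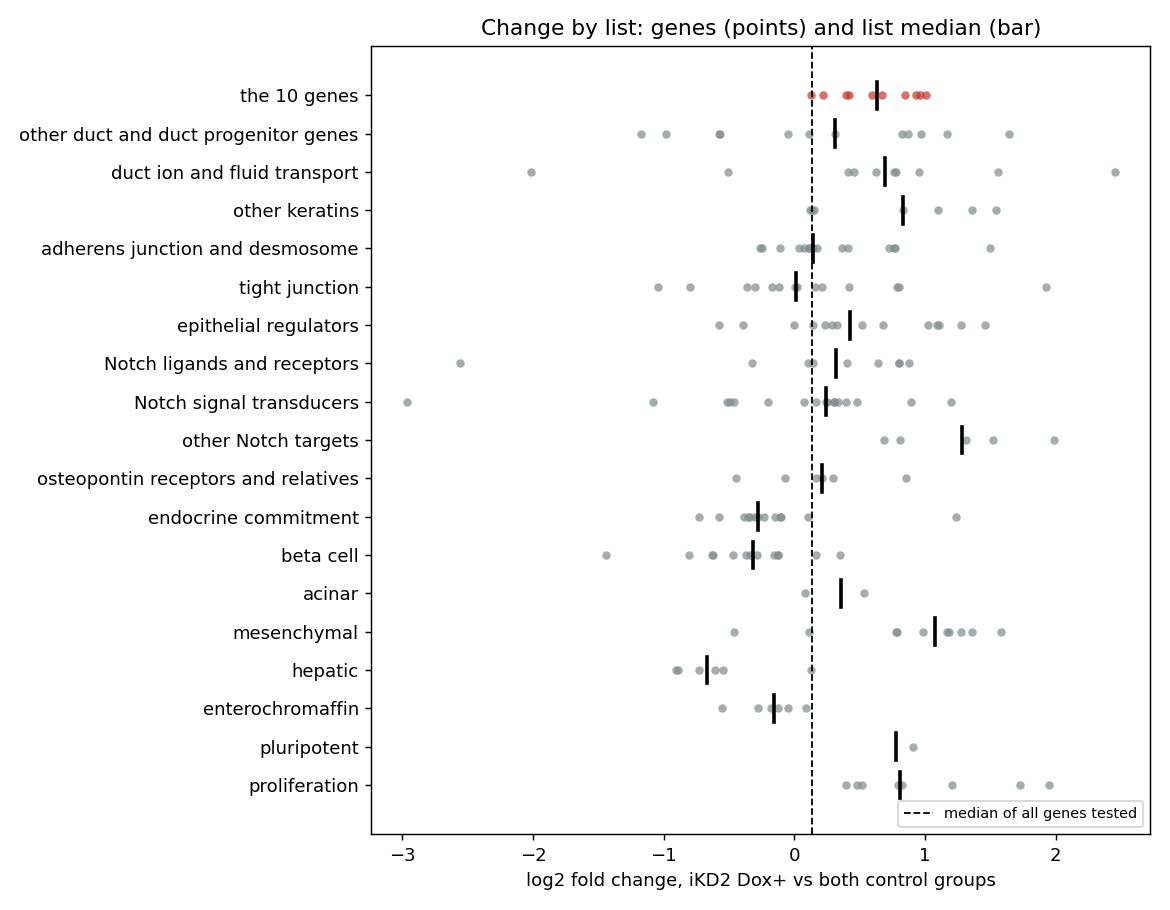
Log2 fold change of iKD2 Dox+ against both control groups (x axis) for the 10 genes and 18 other gene lists (y axis). Points are genes with a mean of at least 5 CPM that are above 0 in every group, short bars are the list medians over all genes tested, and the dashed line is the median of all genes (0.14). The 10 genes have their median at 0.63, and the beta cell list at -0.31.

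Among markers of other cells, the sums of 3 lists separated iKD2 Dox+ from all controls, 2 of them opposite in direction to the duct and epithelial genes. The summed level of 14 beta cell genes was 25889 to 30173 CPM in iKD2 Dox+ and 34316 to 40672 CPM in the controls, and that of 13 endocrine commitment genes 1641 to 2081 CPM and 2103 to 2520 CPM, so both lay below all controls. Most of the beta cell sum was INS, at 11365 to 13581 CPM in iKD2 Dox+, and CHGA, a granule protein picked after its values were seen, at 12446 to 14419 CPM. Of the 14 genes, 3 were above 0 against iKD2 Dox- and 6 against iSCR Dox+. INS fell by 0.85 on the log2 scale against iSCR Dox+ (SE 0.10, adjusted p = 4.71e-04). Against iKD2 Dox- its log2 fold change was -0.39 (SE 0.10, adjusted p = 0.451), and iKD2 Dox- itself differed from iSCR Dox+ by -0.45 (SE 0.12, adjusted p = 0.614). The sum of 8 proliferation genes was 475 to 640.1 CPM in iKD2 Dox+ and 219 to 452 CPM in the controls, with no overlap. The sum of 12 mesenchymal genes was 1180 to 1861 CPM in iKD2 Dox+, 1006 to 1044 CPM in iKD2 Dox- and 1287 to 1513 CPM in iSCR Dox+. Although these sums overlapped, 10 of the 12 genes were above 0 against both control groups, with a median of 1.08 that is above the 0.63 of the 10 duct and epithelial genes. None of the 12 passed, and 4 were higher before adjustment (4.51% of all genes). VIM (vimentin), the most abundant of them and picked after its values were seen, had a log2 fold change of -0.46 (adjusted p = 0.733). The sum of 8 hepatic genes was 1327 to 1939 CPM in iKD2 Dox+ and 1887 to 2621 CPM in the controls, that of 6 enterochromaffin genes 1134 to 1296 CPM and 1049 to 1631 CPM, and that of 6 pluripotent genes 11.8 to 62.3 CPM and 7.65 to 27.8 CPM, all with overlap. Acinar markers were near 0, with a sum of 9.03 to 47.7 CPM, and 4 of 15, CELA3A, PNLIP, CTRB2 and REG1A, were at 0 in all libraries. The part of these cells in the levels of the duct and epithelial genes was not tested.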

How the data were processed

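Counts were made by the authors. Adapters were removed (fastp is named in the submitters' processing notes), reads of a stranded total-RNA kit were assigned to transcripts with kallisto, and transcripts were added up per gene with tximport. The deposited values are estimated counts for each gene, without correction for depth or length. Versions, genome build, annotation and strand setting were not given in the sources used here. A read that fits several genes is divided between them.

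Here, counts were rounded, filtered (filterByExpr, 22926 genes), normalised with TMM factors and fitted in edgeR 4.0.16 (quasi-likelihood test, R 4.3.3), with 7 libraries and 3 groups in one fit and calls at an adjusted p of 0.05 (Benjamini-Hochberg). The study describes the libraries of a group as independent biological samples. Total counts were 14875429 to 20639156, and a count of 0 allows 3 counts (counting error only). The noise index of same-group pairs (median squared difference over its Poisson variance, scaled to be 1 for sampling noise) was 98.3 to 163, so no pair was counted as 1 sample. The script was tested on simulated data with changes larger than those of the members and less spread than the genes tested here. That test cannot tell how well changes like those of the members are found.

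Members and lists were chosen with earlier results of these data known. Genes named beyond the 10 members are those of each list past an adjusted p of 0.05, otherwise the 2 with the largest change against both control groups at 5 CPM or more, and others where said; for lists of other cell types only the sums are given, with INS, and a gene of the duct list that the rule names is not reported here. List medians are of fitted values. Alternatives were other scaling, filters, tools (DESeq2 1.42.0, limma 3.58.1), samples and a replicate block.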

Additional observations from a re-analysis of the deposited data

How the results depend on the processing

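The log2 fold changes of the 10 members in 4 comparisons were recomputed under up to 21 alternatives, 830 values in all. Of these, 736 kept their direction and their side of the threshold, 60 kept their direction and passed it, and 34 turned in direction. No value of SOX9, KRT19, KRT8 or KRT18 against iKD2 Dox-, iSCR Dox+ or both control groups turned. Without a filter beyond a total of 1 count, 2 members were called against iKD2 Dox- (0.151% of all genes) and 3 against both control groups (0.291%). DESeq2 called 4, 1 and 4 members against iKD2 Dox-, iSCR Dox+ and both control groups, and limma voom 3, 1 and 2. Their shares of all genes are given above. Voom with sample weights called 3, 0 and 2 members (0.318%, 0.0349% and 0.249% of all genes). Leaving out 1 library at a time gave 0 to 4 called members against iKD2 Dox-, 0 to 2 against iSCR Dox+, 0 to 2 between the controls and 0 to 5 against both control groups, with the genes tested either chosen anew or, for the controls, kept as with all libraries (chosen after seeing the data). The values that turned were at most 0.30 in size on the log2 scale, but some were larger than the value of the main fit. For EPCAM between the controls, the main fit gave -0.06 and an alternative 0.30. Between the controls, CDH1 was at -0.026 with DESeq2 size factors and with the DESeq2 test. With 1 library left out, the control difference ranged from -0.63 to 0.051 for SOX9, from -0.32 to 0.083 for KRT19, from -0.79 to 0.11 for KRT18, from -0.23 to 0.86 for KRT7, from -0.34 to 0.30 for EPCAM, from -0.27 to 0.36 for CDH1, from -0.13 to 1.21 for SPP1 and from -0.051 to 10.5 for CFTR. The difference of iKD2 Dox+ from iSCR Dox+ ranged from -0.36 to 0.047 for HES1 and from -0.185 to 0.45 for EPCAM, and that from both control groups from -0.015 to 0.30 for EPCAM. The cause was not tested.

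The replicate letters are shared between groups. Deviations from group means correlated at -0.0267 to 0.0158 between libraries of the same letter and at -0.0319 to 0.0319 between those of different letters. With 2 libraries in each control group, their deviations mirror each other. These values therefore cannot decide whether the letters mark pairs. With the letter as a replicate block, 2 members (KRT19 and KRT18) were called against both control groups and 0 in the other comparisons. Of all genes, 0.174% were called against both control groups with the block and 0.048% without it. EPCAM was at 0.17 between the controls with the block. Scaling by DESeq2 or upper-quartile factors, a filter at 5 CPM, a fit of only the groups compared and adding pseudogene counts to KRT8, KRT18 and KRT19 called no member. Genes at 0 in a whole group, set at the limit of 3 counts, moved list medians against both control groups by at most 0.15. Depth did not limit SOX9, the keratins, EPCAM, CDH1 or HES1, with over 500 counts in each library, but SPP1 and CFTR had 0 to 408.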
